A study of Mus musculus with 8 samples.

Results

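Natural killer (NK) cells of mouse lung adenocarcinomas are described here as the cells that had at least 3 of the 7 NK genes Ncr1, Klrb1c, Klra8, Prf1, Gzma, Eomes and Klre1 detected (1 or more UMIs, unique molecular identifiers that each count 1 captured transcript). They also had no UMI of the T-cell genes Cd3e, Cd3d and Cd3g or of the B-cell gene Cd79a, at most 2 UMIs over the macrophage genes C1qa, C1qb and C1qc, and at most 2 over the epithelial genes Krt8 and Krt18. This rule took 1802 of 24838 cells that had 500 or more UMIs, 250 or more genes and at most 15% mitochondrial UMIs. The cells were chosen by their own transcripts, so the levels of these genes describe the choice and no finding is drawn from them. They stayed among the genes tested and counted within NK cells. Within the NK cells, a second division was made by whether a UMI of Cd27 or of Itgam was detected.

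All tumours were lung adenocarcinomas of KPC mice started by lentivirus in the airway and taken after 16 weeks, when the largest ones were dissected, and all carried a CRISPR activation system in the tumour cells. In the mA1 group (4 tumours) its guides, called dRNAs, were directed at Malat1, a long nuclear RNA. In the Con group (4 tumours) they were directed at Tomato, so the activation system, lentivirus and tumour model were shared by both groups. Each library pooled 2 tumours that antibodies to CD45 and MHC class I had marked with 1 hashtag each, and each group had 2 libraries, so a tumour is the cells of 1 library that carried 1 hashtag. Nothing in the labels states that hashtags mark separate mice, and p-values therefore measure the spread between these 8 cell sets, part of which may be technical. The activation system belonged to the tumour cells by design. EGFP, the only transgene among the measured features, had 43 to 159 UMIs per library in cells with Krt8 and Krt18 and 5 UMIs over all NK cells, all in mA1 library 1, so it was too low in both to show which cells carried the system.

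NK cells are innate lymphocytes that kill stressed, infected or transformed cells with perforin and granzymes and release interferon gamma and chemokines that draw in dendritic cells and T cells. Whether they fire is set by a balance of activating receptors, such as NKp46 (Ncr1), and inhibitory receptors of the Ly49 and NKG2A families that read MHC class I on the target. In the mouse, circulating NK cells mature from a CD27+ CD11b- stage through a double-positive stage to a CD27- CD11b+ stage, where CD11b is the product of Itgam, and gain Klrg1, S1pr5 and granzyme stores on the way. The lung is rich in the mature form.

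The rule left few cells near its edge. Of the 1802 cells, 307 had all 7 NK genes detected, 697 had 6, 559 had 5, 185 had 4 and 54 had 3. Gzma, which encodes granzyme A, was detected in 98.6% of them, Klre1, a lectin-like receptor, in 94.4%, Prf1, which encodes perforin, in 90.6%, Ncr1 in 89.1% and Klrb1c, which encodes NK1.1, in 87.8%. Klra8, which encodes the Ly49H receptor, was detected in 56.2% and the transcription factor gene Eomes in 39.7%. The 54 cells just inside the limit had Nkg7, a granule protein gene, in 92.6% and Gzmb in 31.5%. The 36 cells just outside it, with 2 NK genes and the other limits met, had Nkg7 in 58.3% and Gzmb in 8.33%. Lyz2, a myeloid gene, was present in 38.9% of the cells just inside and 69.4% of those just outside.

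Genes that the rule did not use were checked against the label, including markers of type 1 innate lymphoid cells, helper-like relatives that stay in tissue. Ccl5 was detected in 99.9% of NK cells, Gzmb in 74.5%, Tbx21, the gene for the transcription factor T-bet, in 39.2% and Itga2, which encodes the DX5 integrin, in 34.2%. Of the type 1 innate lymphoid markers, Itga1 was detected in 2.94%, Cxcr6 in 0.67% and Il7r in 3.77%, and 28 cells (1.55%) had 2 or more of the 5 such markers measured (Itga1, Cxcr6, Il7r, Cd200r1, Tnfsf10). T-cell receptor constant regions were not all absent. Trac had a UMI in 2.33% of NK cells, Trbc1 in 39.0% and Trbc2 in 30.0%; NK cells are known to transcribe the unrearranged beta locus, and with all 3 Cd3 genes at 0 by the rule these cells were kept.

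Genes of the rule lie in part in the natural killer gene complex of chromosome 6, where the lectin-like receptor families sit side by side. In the RefSeq annotation of GRCm38.p6, Klrb1c spans chr6:128778485-128788641, Klre1 chr6:129559365-129585828, Klra8 chr6:130115226-130129898 and Klra1 chr6:130363918-130386874. Ncr1 lies elsewhere, at chr7:4337715-4345184, as do Gzma (chr13:113093824-113100981), Prf1 (chr10:61297751-61304684) and Eomes (chr9:118478186-118486132). The pair of genes used for the division are Cd27 at chr6:125232620-125237136 and Itgam at chr7:128062640-128118491. All of them are protein-coding.

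The 4 libraries held 4939 to 10168 cell barcodes and 48319272 to 74996867 UMIs, and NK cells had a median of 1851 UMIs in Con library 1, 2764.5 in Con library 2, 2281 in mA1 library 1 and 2431.5 in mA1 library 2. A single hashtag was assigned to 1746 NK cells. No NK barcode was shared between libraries except 1 between the mA1 libraries. Xist, transcribed from the inactive X chromosome of females, was at 1186 and 1141 CPM (the gene's UMIs scaled to the same total in every sample) in the NK cells of both tumours of Con library 2 and at 0 to 11.99 CPM in the other 6 tumours. Sex therefore separates Con library 2 from the 6 other tumours. Malat1 itself made up 3.56% and 4.15% of NK UMIs in Con libraries 1 and 2, and 2.81% and 4.58% in mA1 libraries 1 and 2. In cells with Krt8 and Krt18 it made up 3.98% and 2.31% for Con, 2.52% and 4.41% for mA1, so by library the 2 groups overlapped in tumour-type cells as well.

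NK cells were a varying share of the tumours. They made up 7.27% and 5.70% of the cells in the tumours of Con library 1, 14.7% and 12.2% in those of Con library 2, 8.67% and 5.67% in those of mA1 library 1, and 5.33% and 4.85% in those of mA1 library 2. The 2 tumours of Con library 2 were the highest of all 8 and the tumours of Con library 1 lay among the mA1 tumours. The mean was 9.94 ± 4.17% in Con and 6.13 ± 1.73% in mA1 tumours (SD, n = 4 each), a difference of -3.81 percentage points (exact two-sided permutation p = 0.171; the smallest p that 4 against 4 tumours allow is 0.0286). Without Con library 2 the difference was -0.35 percentage points, and without Con library 1 it was -7.27. A share says how many captured cells met the rule and not how many NK cells a tumour held, since dissociation and capture also set it.

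The division by Cd27 and Itgam gave 130 Cd27+ Itgam- cells, 102 Cd27+ Itgam+ cells, 811 Cd27- Itgam+ cells and 759 cells with neither. Detection of a single gene misses cells that hold few of its transcripts, and the class with neither had the lowest depth, with a median of 2151 UMIs against 2935.5, 3014 and 2579 in the other classes in that order. Cd27 had a UMI in 12.9% of NK cells (median 2416.5 UMIs), and in 1.00% of neutrophils (median 1685) and 4.62% of B cells (median 2559), cell types set beside them as a measure of free RNA, although B cells can carry CD27. Itgam had a UMI in 50.7% of NK cells, in 5.83% of B cells and in 3.34% of CD8 T cells (median 4348). Pooled over tumours, both shares in NK cells were above those in the other cell types named here for the gene concerned. By tumour, the Cd27 share was lowest, at 5.59%, in the first tumour of Con library 1. The part of free RNA in these shares was not tested.

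The Cd27+ Itgam- share of NK cells was higher in every mA1 tumour than in every Con tumour. It was 3.50% and 7.2% in Con library 1, 4.55% and 4.98% in Con library 2, 7.48% and 10.3% in mA1 library 1, and 17.0% and 16.0% in mA1 library 2. The lowest mA1 value, 7.48%, lay just above the highest Con value, 7.2%, and the 2 tumours of mA1 library 2 stood highest. The mean was 12.7 ± 4.58% in mA1 and 5.06 ± 1.56% in Con tumours (SD, n = 4 each), a difference of 7.67 percentage points (exact two-sided permutation p = 0.0286, the smallest possible here). It did not pass after adjustment over the 5 shares compared (exact permutation, Benjamini-Hochberg adjusted p = 0.143). When each cell was thinned to 1000 UMIs, which removes the depth gap, the shares were 1.61%, 3.52%, 3.94% and 3.54% in Con and 3.47%, 6.76%, 6.25% and 7.79% in mA1 tumours, which overlapped, and the difference was 2.91 percentage points (exact permutation p = 0.114).

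The other classes overlapped between the groups. Cd27- Itgam+ cells, the mature class, made up 32.9% and 34.8% of NK cells in Con library 1, 58.8% and 54.2% in Con library 2, 43.0% and 34.3% in mA1 library 1, and 35.2% and 33.3% in mA1 library 2. Con library 2 was again apart from all other tumours, and the mean of 45.2 ± 13.3% in Con against 36.5 ± 4.42% in mA1 tumours turned to a mA1 excess of 2.63 percentage points without that library (exact permutation p = 0.343 with all 8 tumours). Cd27+ Itgam+ cells were 2.10 to 6.97% of NK cells in Con and 4.67 to 7.85% in mA1 tumours (exact permutation p = 0.2). Cells with neither gene were 31.3 to 61.5% in Con and 42.0 to 47.5% in mA1 tumours (exact permutation p = 0.943). Cells with UMIs of 2 or more of 8 proliferation genes numbered 16 of 1802 (0.89%), and 5 of them were in the second tumour of mA1 library 1, at 2.07% of its NK cells, against 0 in the other 3 mA1 tumours and 0 to 1.00% in Con tumours. A count of 0 among the mA1 tumours allows a share of up to 1.40% to 3.70%, so proliferation at the Con level was not detectable in those tumours at their cell numbers.

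**Figure D1:**
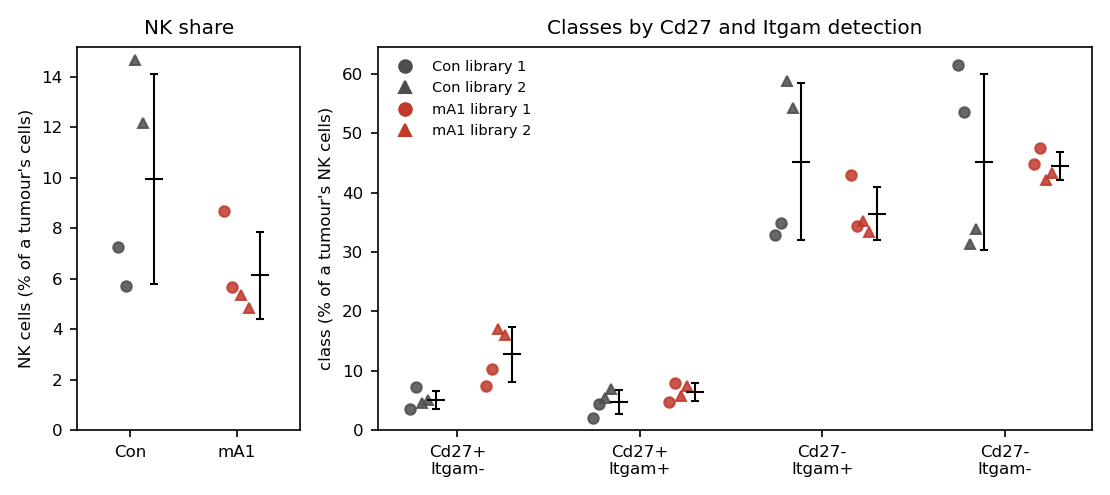
NK cells as a percent of a tumour's cells (left axis) and each Cd27 and Itgam class as a percent of a tumour's NK cells (right axis), with 1 point per tumour (Con grey, mA1 red; circles library 1, triangles library 2) and a dash with bars for the mean ± SD of 4 tumours. The Cd27+ Itgam- class runs from 3.50 to 7.2% in Con and from 7.48 to 17.0% in mA1 tumours, while both triangles of Con stand apart in the NK share and in the Cd27- Itgam+ class.

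The Cd27+ Itgam- and Cd27- Itgam+ cells of the same tumours differed in many other genes. Cd27+ Itgam- cells had higher Ctla2a, Cd7, Ly6e and Xcl1, and lower Klrg1, Cma1, Zeb2, Gzmb, Irf8 and S1pr5. Summed UMIs of each class were compared within tumours by edgeR's quasi-likelihood test in 7 tumours, since the first tumour of Con library 1 had 5 Cd27+ Itgam- cells, fewer than the 10 required. Of 1129 genes tested other than Cd27 and Itgam, 107 (9.48%) passed at a Benjamini-Hochberg adjusted p under 0.05, 82 of them (7.26%) higher and 25 (2.21%) lower in Cd27+ Itgam- cells. The values in each of the 7 tumours are given in the order Con library 1 (second tumour), Con library 2 (both), mA1 library 1 (both) and mA1 library 2 (both), in CPM scaled by edgeR's normalisation factors.

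Among genes of the early stage, Ctla2a, a cysteine protease inhibitor gene, was at 823, 656, 814, 1020, 1117, 1341 and 731 CPM in Cd27+ Itgam- cells and at 621, 188, 211, 249, 285, 322 and 411 CPM in Cd27- Itgam+ cells. The lowest of the first series was above the highest of the second (log2 fold change 1.59 ± 0.19, SE; edgeR adjusted p = 2.3e-06). Cd7, which encodes a co-stimulatory surface protein, was at 263, 380, 271, 315, 559, 402 and 303 CPM against 127, 134, 138, 194, 165, 80.4 and 79.6 CPM, again without overlap (1.41 ± 0.19; edgeR adjusted p = 2.2e-06). Xcl1, which encodes a chemokine that recruits cross-presenting dendritic cells, averaged 441 ± 205 CPM against 184 ± 70.6 CPM (SD, n = 7), and 6 of 7 tumours had the higher value in Cd27+ Itgam- cells (1.28 ± 0.32; edgeR adjusted p = 0.032). Ly6e, a GPI-anchored surface protein gene, had a log2 fold change of 1.33 ± 0.17. Next by size of the increase, among the genes reported here, were Zfp36l1, an RNA-binding protein that destabilises transcripts (1.07), Car2, carbonic anhydrase II (0.96), Mif, a cytokine (0.88), Limd2 (0.84) and Itpkb, an inositol phosphate kinase (0.82). Of the 14 genes listed for the early stage, 5 were abundant enough to test and 3 (Ctla2a, Cd7 and Xcl1) rose, while Cd69 (0.44) was among those that did not pass.

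Among genes of the late stage, Klrg1, an inhibitory receptor of mature NK cells, was at 158, 173, 60.3, 92.8, 93.1, 67.1 and 50.4 CPM in Cd27+ Itgam- cells and at 260, 278, 284, 308, 242, 422 and 345 CPM in Cd27- Itgam+ cells. All 7 tumours had the lower value in the first class and the 2 series did not overlap (log2 fold change -1.43 ± 0.24; edgeR adjusted p = 2.5e-05). Cma1, a chymase gene, averaged 237 ± 93.3 against 618 ± 66.2 CPM (-1.39 ± 0.19; edgeR adjusted p = 2.0e-06). Gzmb, which encodes granzyme B, was at 438, 978, 452, 594, 372, 469 and 277 CPM against 1078, 1122, 1217, 1206, 912, 1005 and 703 CPM, lower in the first class in every tumour (-1.05 ± 0.14; edgeR adjusted p = 2.2e-06). Zeb2, a repressor needed for terminal NK maturation, averaged 456 ± 142 against 971 ± 84.0 CPM (-1.10 ± 0.15). Also lower were Fgl2 (-1.18), the Ly49 gene Klra9 (-0.92), the transcription factor gene Irf8 (-0.91) and the heat shock gene Dnajb1 (-0.89). S1pr5, the receptor by which mature NK cells leave tissue (-0.89), and Borcs7 (-0.75) completed the 10 called genes with the largest decrease outside the NK rule. Of the 13 late-stage genes listed, 9 were tested and 7 fell (Klrg1, Cma1, Zeb2, Gzmb, Irf8, S1pr5 and Spn), while Ly6c2 (-0.83) and Tbx21 (-0.59) did not pass. The median log2 fold change was -0.91 over the late list and 1.28 over the early list, against 0.00 over all 1129 genes.

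**Figure D2:**
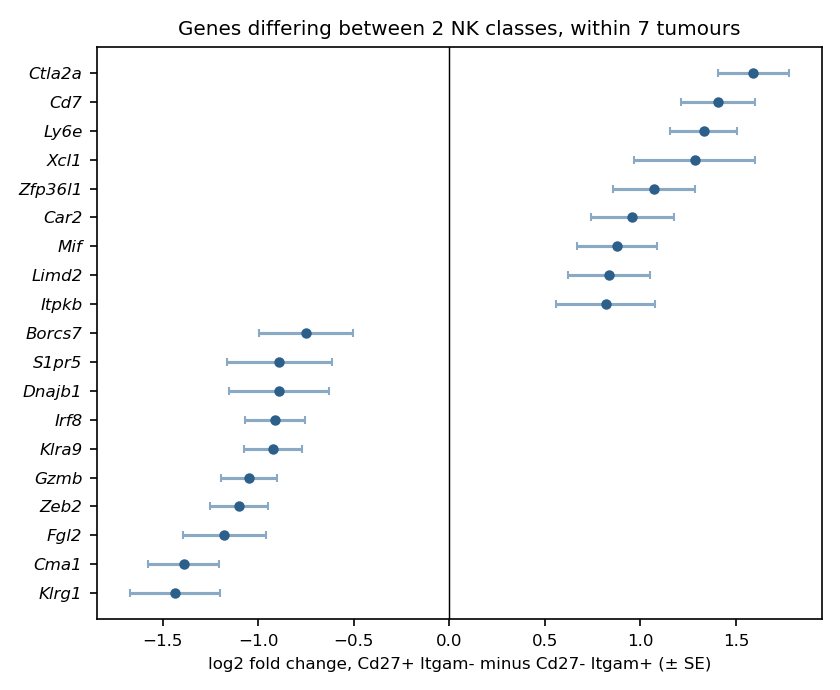
Log2 fold change of Cd27+ Itgam- over Cd27- Itgam+ NK cells of the same 7 tumours (horizontal axis, points with bars of ± SE) for called genes named in the text. Ctla2a at 1.59 and Klrg1 at -1.43 are the extremes.

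Of 8 cytotoxic genes tested that the NK rule did not use, 2 were lower in Cd27+ Itgam- cells and none higher: Gzmb, which the late list also holds, and Serpinb9, the inhibitor that protects a killer cell from its own granzyme B (-0.60). The selection genes Prf1 and Gzma had log2 fold changes of -0.84 and -0.80. Both are among the 25 genes counted as lower, but as genes of the NK rule they are given only as a description. Nkg7 (-0.19), Ctsw (0.22) and Srgn (-0.03) did not pass. Of 5 secreted factors tested, Xcl1 was higher and Ccl5 lower (-0.62), while Ccl3 (-0.43), Ccl4 (-0.29) and Ifng (0.04) did not pass. Among homing genes, S1pr5, Klf2 (-0.48) and Itgb2, the beta chain that pairs with the Itgam product (-0.56), were lower, out of 12 tested. Of receptor genes, 1 of 11 in the NKG2 and Klr families (Klrg1) and 1 of 6 Ly49 genes (Klra9) passed, against 9.48% of all genes tested.

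Ribosomal protein genes made up most of the increases. Of 80 tested, 62 were higher in Cd27+ Itgam- cells and none lower, with a median log2 fold change of 0.33, and Gas5, a host transcript of small nucleolar RNAs, was higher as well (0.67). Malat1 was lower (-0.23 ± 0.07; edgeR adjusted p = 0.022), at 26600 to 43199 CPM in Cd27+ Itgam- and 30149 to 49838 CPM in Cd27- Itgam+ cells. Of 16 immediate early and dissociation genes tested, Fosb was higher (0.73) and Dnajb1 and Hspa1a (-0.48) were lower. The macrophage genes Lyz2 and Chil3 had log2 fold changes of -1.67 and -1.48 in the same comparison, neither passing, and Itgam is itself expressed by myeloid cells. Their part in the result was not tested, but without the NK cells that held 10 or more UMIs of 16 myeloid genes, an alternative chosen after seeing the data, 129 genes passed and all 107 were among them. With cells thinned to 1000 UMIs, 497 genes could be tested and 1 passed, which was not among the 107. Ctla2a (0.98), Cd7, Ly6e, Cma1, Zeb2, Gzmb, Klra9 and Irf8 kept their direction at this equal and lower depth but not their significance. Other named genes, among them Klrg1, Xcl1 and S1pr5, could not be tested there.

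The other 2 classes took different places from gene to gene. With UMIs summed over the 8 tumours, Ctla2a was at 916 CPM in Cd27+ Itgam-, 489 in Cd27+ Itgam+, 447 in cells with neither and 269 in Cd27- Itgam+ cells. Klrg1 was at 106, 112, 215 and 284 CPM in the same order, and Gzmb at 535, 491, 1080 and 1104. For Klrg1 and Gzmb the Cd27+ Itgam+ cells were thus at the level of Cd27+ Itgam- cells. The cells with neither gene were near Cd27- Itgam+ cells for Gzmb and in between for Klrg1. Genes too low to test showed their highest level in Cd27+ Itgam- cells, or in Cd27- Itgam+ cells for Cx3cr1. Emb was at 306, 115, 101 and 34.7 CPM, Tcf7, a factor of immature lymphocytes, at 91.3, 28.1, 40.6 and 15.4, Cxcr3 at 59.2, 28.1, 28.0 and 12.4, and Cx3cr1, the fractalkine receptor of patrolling cells, at 17.3, 79.98, 99.5 and 142 CPM in that order. These pooled values have no replicate error, and Con library 2 gave 419 of the 786 Cd27- Itgam+ cells summed but 34 of the 126 Cd27+ Itgam- cells. Within the 5 tumours that had 10 or more cells of every class, the Cd27+ Itgam+ cells were below the Cd27+ Itgam- cells in Ctla2a in 5 of 5 (477 ± 152 against 878 ± 179 CPM, SD, n = 5) and below the Cd27- Itgam+ cells in Gzmb in 5 of 5 (521 ± 329 against 1132 ± 149 CPM). The cells with neither gene were above the Cd27+ Itgam- cells in Gzmb in 5 of 5 (1112 ± 247 against 567 ± 260 CPM) and in Klrg1 in 5 of 5 (222 ± 60.2 against 114 ± 48.0 CPM). They were below the Cd27- Itgam+ cells in Klrg1 in 4 of 5 (281 ± 32.0 CPM in the latter) and in Gzmb in 2 of 5. Between Cd27+ Itgam+ and Cd27+ Itgam- cells, Klrg1 (127 ± 65.1 CPM in the former) and Gzmb differed by less than their spread over tumours.

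**Figure D3:**
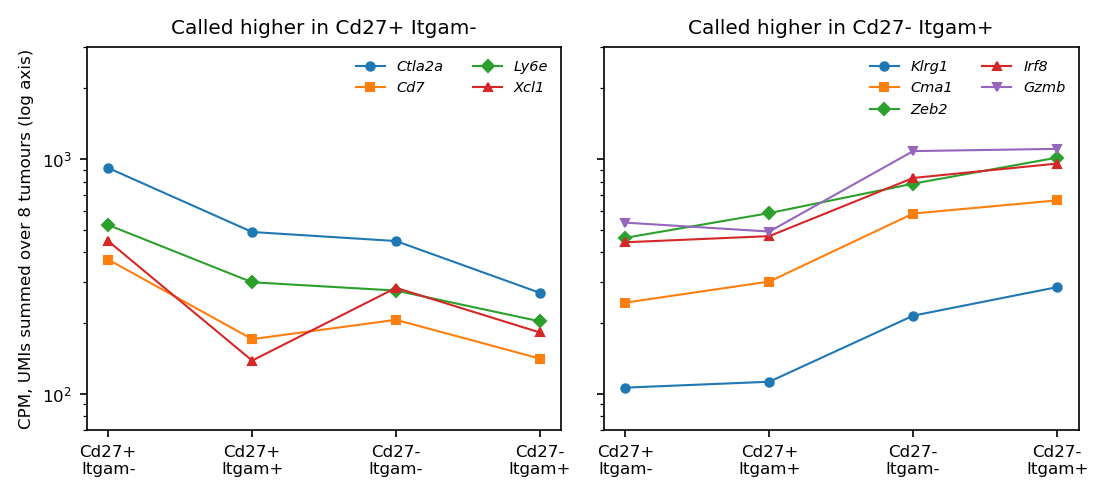
Level of 4 genes called higher in Cd27+ Itgam- cells (left) and 5 called higher in Cd27- Itgam+ cells (right), in CPM from UMIs summed over the 8 tumours on a log axis, across the 4 classes (lines join the points of a gene). Ctla2a falls from 916 to 269 CPM from left to right and Gzmb stands at 535 and 491 CPM in the Cd27+ classes against 1080 and 1104 CPM in the Cd27- classes.

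Promoters of 5 genes that differed between these classes are shown, from 250 bases before to 50 bases after the start, with matches to the T-box core AGGTGT (T-bet and Eomes), the Runx core TGTGGT and the Ets core GGAAGT in capitals on either strand. Sequences are RefSeq's, in GRCm38.p6, read along each gene. The killing genes lower in Cd27+ Itgam- cells come first: Gzmb at chr14:56262285-56262584 (minus strand), Prf1 at chr10:61297586-61297885 (plus) and Gzma at chr13:113100932-113101231 (minus). Xcl1 at chr1:164935473-164935772 (minus) and Ctla2a at chr13:60936576-60936875 (minus) were higher there. Prf1 and Gzma belong to the NK rule and are given only as a description.
Gzmb: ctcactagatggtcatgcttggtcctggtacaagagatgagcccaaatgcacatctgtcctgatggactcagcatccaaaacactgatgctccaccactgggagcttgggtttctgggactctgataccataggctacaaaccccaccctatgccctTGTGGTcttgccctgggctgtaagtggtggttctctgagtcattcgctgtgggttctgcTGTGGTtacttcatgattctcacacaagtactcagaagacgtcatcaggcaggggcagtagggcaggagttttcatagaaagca
Prf1: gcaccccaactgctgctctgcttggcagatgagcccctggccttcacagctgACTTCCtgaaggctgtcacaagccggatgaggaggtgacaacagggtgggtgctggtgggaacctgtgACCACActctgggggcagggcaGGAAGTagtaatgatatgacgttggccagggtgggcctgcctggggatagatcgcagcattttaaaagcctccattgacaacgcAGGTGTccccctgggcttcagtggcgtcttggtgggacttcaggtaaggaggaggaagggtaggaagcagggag
Gzma: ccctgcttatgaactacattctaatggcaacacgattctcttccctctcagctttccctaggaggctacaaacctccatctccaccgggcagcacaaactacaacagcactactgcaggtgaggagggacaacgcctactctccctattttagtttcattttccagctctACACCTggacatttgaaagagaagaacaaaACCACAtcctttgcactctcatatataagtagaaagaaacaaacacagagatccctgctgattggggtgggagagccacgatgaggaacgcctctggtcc
Xcl1: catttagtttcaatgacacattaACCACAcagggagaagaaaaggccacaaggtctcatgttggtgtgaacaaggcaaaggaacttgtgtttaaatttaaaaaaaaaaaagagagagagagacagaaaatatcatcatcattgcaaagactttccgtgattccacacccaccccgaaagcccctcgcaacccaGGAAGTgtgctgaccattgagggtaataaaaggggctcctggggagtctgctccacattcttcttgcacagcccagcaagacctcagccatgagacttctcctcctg
Ctla2a: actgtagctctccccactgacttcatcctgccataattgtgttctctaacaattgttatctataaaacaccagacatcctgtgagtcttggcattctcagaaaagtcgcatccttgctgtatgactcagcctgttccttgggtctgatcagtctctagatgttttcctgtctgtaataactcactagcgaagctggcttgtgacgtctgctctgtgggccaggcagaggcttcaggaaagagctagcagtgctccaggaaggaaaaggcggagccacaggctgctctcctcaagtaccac

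Prf1 held all 3 kinds of match (T-box 1, Runx 1, Ets 2), Gzma a T-box and a Runx match, Gzmb 2 Runx matches, Xcl1 a Runx and an Ets match, and Ctla2a no match in this window. The T-box matches among the promoters shown are thus all in genes of the NK rule. Cma1 (Runx 1), S1pr5 (Ets 1) and Zeb2 (no match), also lower in Cd27+ Itgam- cells but not printed, held no T-box match. Over the genes called lower in Cd27+ Itgam- cells, 21 of 25 had a promoter of this length, of which 2 (9.52%) held the T-box core, 6 (28.6%) the Runx core and 6 (28.6%) the Ets core. The selection genes Prf1 and Gzma are among these 25. Over those called higher, 62 of them ribosomal protein genes, 60 of 82 had one, of which 7 (11.7%) held the T-box, 9 (15%) the Runx and 27 (45.0%) the Ets core. Among 27025 promoters of the same length, 13.9%, 16.9% and 24.1% did. A match is a string of letters and not a shown binding site.

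Between mA1 and Con tumours few genes of NK cells were called. Clu, Igkc, Igha, Ccl3, Egr1 and Klra1 were lower in mA1 NK cells and no gene was called higher in the main fit. That fit used all 8 tumours, all their NK cells, a filter on low counts and no block. With the library number as a block 1 gene was called higher, and without cells rich in myeloid UMIs 3 were. Without mA1 library 2, 41 genes were called higher and 19 lower, and with no filter 27 higher and 25 lower. UMIs of all NK cells were summed per tumour and tested with edgeR's quasi-likelihood test over 8 tumours, and 6 of 5997 genes (0.100%) passed at a Benjamini-Hochberg adjusted p under 0.05. Values per tumour are in CPM without further scaling, in the order Con library 1, Con library 2, mA1 library 1 and mA1 library 2, with 2 tumours each. In bulk sums of this kind, a smaller share of cells that express a gene and less RNA of it per cell cannot be told apart.

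Ccl3, which encodes the chemokine MIP-1 alpha that NK cells release on activation (chr11:83647843-83649378), was at 345, 509, 468 and 464 CPM in Con and 235, 236, 320 and 264 CPM in mA1 tumours. All mA1 values lay below all Con values (log2 fold change -0.76 ± 0.14, SE; edgeR adjusted p = 0.0093), and the share of NK cells with a Ccl3 UMI was 37.1 to 50.1% in Con and 29.4 to 30.7% in mA1 tumours. Ccl4, its neighbour and partner chemokine, was at 468, 1101, 720 and 1215 CPM in Con and 695, 343, 424 and 524 CPM in mA1 tumours, which overlapped (-0.80 ± 0.36; edgeR adjusted p = 0.671). Ccl5, Xcl1 and Ifng did not pass (-0.12, 0.22 and 0.04). In CD8 T cells of the same tumours Ccl3 was at 32.2 to 182 CPM in Con and 8.05 to 151 CPM in mA1, so the groups overlapped there.

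Egr1, an immediate early transcription factor gene switched on by receptor signals and by tissue dissociation, was at 64.7, 77.8, 97.1 and 115 CPM in Con and 34.0, 43.8, 36.0 and 41.7 CPM in mA1 NK cells, without overlap (log2 fold change -1.18 ± 0.21; edgeR adjusted p = 0.0093). The rest of its list did not pass. Of 22 immediate early and dissociation genes tested, 20 had a negative log2 fold change, 1 (Egr1) passed, and the median was -0.32, against 0.01 and 51.4% positive over all genes. The list summed to 7105 to 8897 CPM in Con tumours, to 4877 and 4448 CPM in mA1 library 1, and to 8046 and 8057 CPM in mA1 library 2, which was thus within the Con range. Its median was -0.15 with 14 of 22 negative without mA1 library 1, -0.71 without mA1 library 2 and -0.20 without Con library 1. Hspa1a, a heat shock gene, was at 195 and 209 CPM in mA1 library 1 and at 1063 and 867 CPM in mA1 library 2, against 365 to 1021 CPM in Con. Fos was at 356, 308, 368 and 391.5 CPM in Con and 251, 221, 148 and 269 CPM in mA1 tumours, also without overlap (-0.64 ± 0.14; edgeR adjusted p = 0.107), and Klf6 had a log2 fold change of -0.62 (edgeR adjusted p = 0.142). Jun (-0.38), Junb (-0.20) and Nr4a1 (-0.68) did not pass, and Atf3 (1.45) went the other way, led by 1 tumour of mA1 library 2 at 164 CPM. Groups of tumours did not overlap for 250 of the 5997 genes (4.17%).

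Klra1, which encodes the inhibitory receptor Ly49A, was at 155, 207, 238 and 214 CPM in Con and 136, 82.7, 144 and 102 CPM in mA1 NK cells (log2 fold change -0.84 ± 0.17; edgeR adjusted p = 0.031). Its call held in 7 of 21 alternatives, and was lost among others in DESeq2 and in 6 of 8 fits that left out 1 tumour (-0.66 to -0.94 over all alternatives). The highest mA1 tumour, at 144 CPM, was below the lowest Con tumour. Reads of a Ly49 gene can be shared with its near-identical relatives, so its level is uncertain to that extent. It was 1 of 6 Ly49 genes tested to pass: Klra4 (-0.01), Klra9 (0.06), Klra3 (0.09), Klra8 (0.23) and Klra7 (-0.29) did not.

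Ly49 genes are switched on in a mosaic, a few per cell, and the NK cells here showed such a spread. Klra9 had a UMI in 59.3% of NK cells, Klra8 in 56.2%, Klra4 in 54.3%, Klra7 in 44.2%, Klra3 in 30.0% and Klra1 in 13.8%, and the other 5 measured genes in 0.22 to 3.39%. Of the 1802 cells, 71 had no Ly49 gene detected, 262 had 1, 451 had 2, 535 had 3, 382 had 4, 95 had 5 and 6 had 6. The median depth of the cells with 1 to 4 genes was 2288.5 to 2513.5 UMIs, so these classes differed little in depth. It was 2623 UMIs with 0 genes, 2705 with 5 and 3282.5 with 6. The part of depth and of missed transcripts in the number detected was not tested. Klra8 is also a gene of the NK rule, so its share describes the choice. Klra1 was detected in 11.2 to 18.8% of NK cells in Con and 7.44 to 11.1% in mA1 tumours, which did not overlap, and the 2 tumours of Con library 2 (18.8% and 17.9%) were the highest. Klra3 was lower in both tumours of Con library 2 (22.01% and 22.9%) than in the other 6 (30.9 to 43.2%), and Klra7 higher (51.4% and 50.7% against 33.6 to 44.4%), so these genes separated that library and not the groups.

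**Figure D4:**
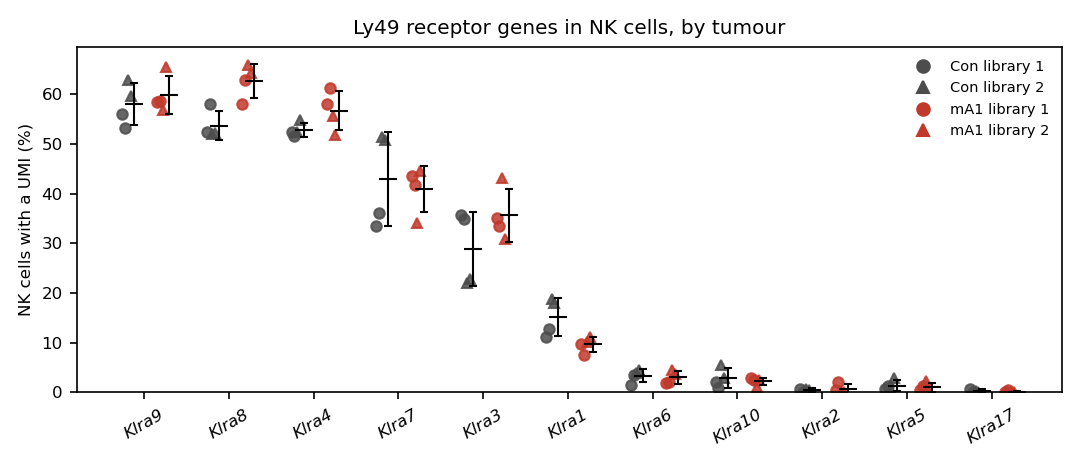
Percent of a tumour's NK cells with a UMI of each Ly49 gene (vertical axis), with 1 point per tumour (Con grey, mA1 red; circles library 1, triangles library 2) and dashes with bars for the mean ± SD of 4 tumours. Klra9, Klra8 and Klra4 each lie between 51.6 and 65.9% in every tumour, and Klra1 is the tested gene whose Con points (11.2 to 18.8%) lie above its mA1 points (7.44 to 11.1%).

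The other 3 called genes are not NK genes by background knowledge, and in CD8 T cells, too, the groups did not overlap in them. Clu, which encodes the secreted chaperone clusterin (chr14:65968483-65981548), was at 75.5, 47.5, 101 and 115 CPM in Con and 21.5, 19.4, 24.0 and 9.27 CPM in mA1 NK cells (log2 fold change -2.13 ± 0.28; edgeR adjusted p = 2.4e-04). In CD8 T cells it was at 26.0 to 74.3 CPM in Con and 10.1 to 17.9 CPM in mA1 tumours, which also did not overlap. Its level in cells with Krt8 and Krt18 was far above both, at 12783 and 20056 CPM in Con and 17300 and 14401 CPM in mA1 libraries. The immunoglobulin gene Igkc was at 367, 410, 362 and 358 CPM in Con and 217, 176, 91.9 and 185 CPM in mA1 NK cells (-1.09 ± 0.16; edgeR adjusted p = 0.0027), and Igha, the heavy chain of IgA, at 183, 173, 132 and 139 against 87.7, 60.8, 36.0 and 60.3 CPM (-1.22 ± 0.20; edgeR adjusted p = 0.0034). CD8 T cells had Igkc at 253 to 379 CPM in Con and 70.4 to 169 CPM in mA1 tumours, and Igha at 81.0 to 302 against 31.3 to 63.3 CPM. Among B cells, neutrophils and C1q macrophages, the groups were also apart for Igha in neutrophils (141 to 176 against 75.1 to 118 CPM) and for Clu in macrophages (53.5 to 820 against 8.49 to 28.4 CPM). They overlapped for Igkc in all 3, for Igha in B cells and macrophages, and for Clu in B cells and in neutrophils (102 to 495 CPM in Con and 25.9 to 796 CPM in mA1). In cells with Krt8 and Krt18, Igkc was at 918 and 1290 CPM in Con libraries and at 62.4 and 24.4 CPM in mA1 libraries. Igha was at 363 and 686 CPM against 26.0 and 8.97 CPM in those cells, so both genes were lower in mA1 there too. In NK cells 9 of 10 B-cell and plasma-cell genes had at least 1 UMI, the defining gene Cd79a was at 0 by the rule, and the list summed to 591 to 710 CPM in Con and 172 to 394 CPM in mA1 tumours. The part of free RNA from plasma and epithelial cells in these 3 results was not tested.

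**Figure D5:**
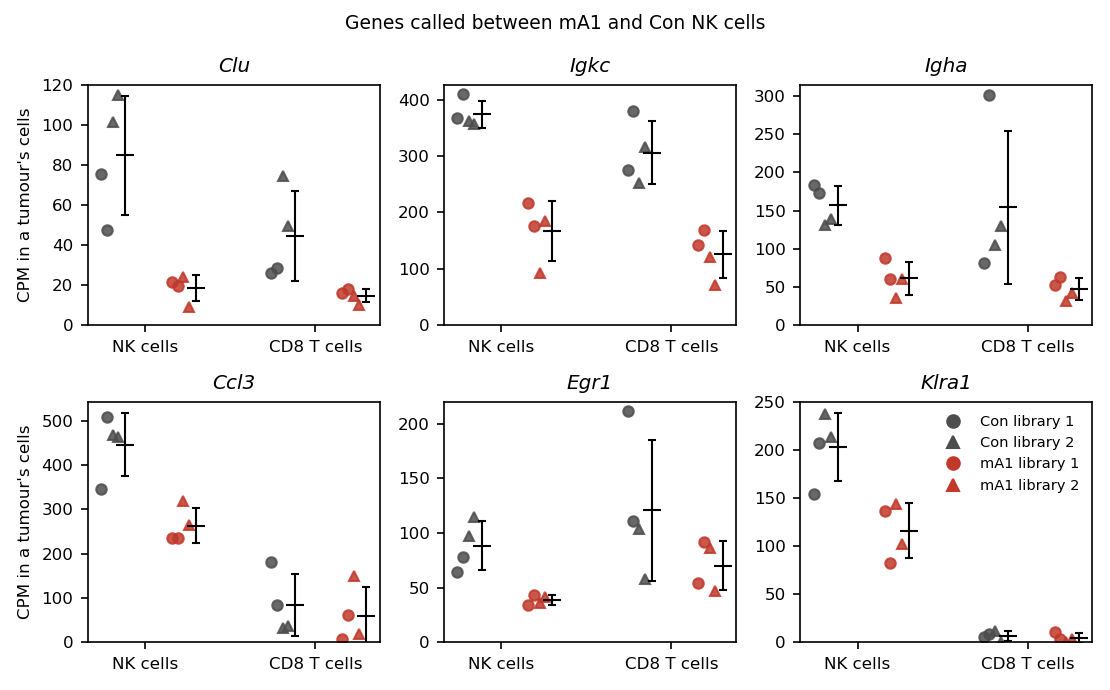
Level of the 6 genes called between mA1 and Con NK cells, in CPM without further scaling (vertical axes from 0), in NK cells and in CD8 T cells of the same tumours, with 1 point per tumour (Con grey, mA1 red; circles library 1, triangles library 2) and dashes with bars for the mean ± SD of 4 tumours. Clu, Igkc and Igha separate the groups in both cell classes, while Ccl3, Egr1 and Klra1 overlap between the groups in CD8 T cells.

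Cd27, which the division uses, was not called between the groups. It was at 32.4, 66.4, 35.7 and 50.2 CPM in Con and 77.0, 74.1, 87.9 and 107 CPM in mA1 NK cells, without overlap (log2 fold change 0.90 ± 0.23; edgeR adjusted p = 0.205), and the share of NK cells with a Cd27 UMI was 5.59 to 11.9% in Con and 12.1 to 23.5% in mA1 tumours. In CD8 T cells Cd27 was at 113 to 178 CPM in Con and 101 to 151 CPM in mA1 tumours. The genes with the smallest p among those not called were, besides Cd27, the higher Blvra (0.90), Ly75 (1.12), Dohh (1.03) and Mfsd6 (1.19), and the lower Fos, Tulp4 (-0.68), Jchain (-1.52), Klf6 and Dnah8 (-1.32). Without the 34 cells of 1746 that held 10 or more UMIs of 16 myeloid genes, an alternative chosen after seeing the data, 15 genes passed and all 6 stayed among them. Cd27 then passed (1.03; edgeR adjusted p = 0.0041). Those 34 cells lay unevenly, with 16 of them in the second tumour of mA1 library 1, where Lyz2 reached 5206 CPM and the macrophage and monocyte list 10946 CPM, against 416 to 6042 CPM in the other 7 tumours.

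No gene of the maturation lists was called between the groups. Of 13 early-stage genes tested between the groups, 12 had a positive log2 fold change in mA1 NK cells, with a median of 0.36 and 0 called (457 of all 5997 genes had an unadjusted p under 0.05). The largest were Il7r (1.41), Ltb (1.10), Cd27 (0.90), Emb (0.61) and Tcf7 (0.52). Il7r was at 25.2, 15.2, 22.6 and 4.85 CPM in Con and 26.9, 42.5, 95.9 and 32.5 CPM in mA1 tumours, led by the first tumour of mA1 library 2. All 8 dendritic cell genes had at least 1 UMI in NK cells, and their list summed to 288 CPM in that tumour (Ccl22 224, Ccr7 44.0) against 0 to 47.7 CPM in the other 7, whose part in the result was not tested. Of 13 late-stage genes, 11 were negative, with a median of -0.21 and 0 called, among them Gzmb (-0.41), Cma1 (-0.42), Irf8 (-0.43) and Prdm1 (-0.62). Cma1 was at 655, 537, 673 and 634 CPM in Con and 514, 395, 436 and 496 CPM in mA1 tumours, without overlap (edgeR adjusted p = 0.35). Con library 2 stood apart in both lists and Con library 1 lay among the mA1 tumours. The late list summed to 5384 and 5744 CPM in Con library 1, 7036 and 6871 CPM in Con library 2 and 4652 to 5951 CPM in mA1 tumours, and the early list to 2032 and 1957, to 1597 and 1718, and to 1882 to 2513 CPM. Without Con library 2 the median of the early list was 0.13 with 9 of 13 positive, and that of the late list -0.07 with 9 of 13 negative. The early median was 0.77 without Con library 1 and 0.64 without mA1 library 1, and the late median -0.41 without Con library 1. Ribosomal protein genes were 62 of the 82 genes higher in Cd27+ Itgam- cells, and 79 of 81 tested in that family were positive between the groups (median 0.15). Of all 82 genes, 76 were positive between the groups (median 0.15), and of the 25 lower ones 21 were negative (median -0.13). Without Con library 2 these counts were 45 of 82 (median 0.01) and 16 of 25 (-0.02), with 52.9% of all genes positive. The first median was 0.30 without Con library 1, and the second -0.08 without mA1 library 1. Both comparisons used the same cells, so these counts restate 1 set of measurements from a second side.

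The remaining lists held no called gene between the groups. This covered 16 interferon response genes (median -0.11), 16 genes of MHC class I presentation (-0.08), 10 cytotoxic genes (-0.12), 11 NKG2 and Klr receptor genes (-0.17), 11 activating receptor and adaptor genes (-0.01), 18 NK transcription factor genes (-0.16), 12 cytokine receptor genes (-0.08) and 8 cell cycle genes (-0.03). Ribosomal protein genes had 79 of 81 positive log2 fold changes with a median of 0.15 and none called. Their sum was 199889 and 198980 CPM in Con library 1, 170095 and 172670 CPM in Con library 2 and 190503 to 211852 CPM in mA1 tumours, so Con library 2 was low and Con library 1 within the mA1 range. Without Con library 2, 48 of 81 were positive (median 0.01), and without Con library 1 the median was 0.31. Malat1 did not differ beyond the spread between tumours (-0.05 ± 0.15; edgeR adjusted p = 0.972), nor did Neat1 (-0.09 ± 0.13). The class difference itself was not shown to depend on the group: the test of that dependence called 0 of 1129 genes by edgeR (71 at an unadjusted p under 0.05).

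The calls between the groups rested on few samples. Without Con library 2, 3 genes passed, of which only Igha was among the 6 (log2 fold change -1.48; edgeR adjusted p = 0.0090), while Ccl3 (-0.73), Egr1 (-0.88), Klra1 (-0.68), Clu (-1.60) and Igkc (-1.19) kept their direction. Without Con library 1, 16 genes passed and Igha, Igkc and Klra1 were lost, and without mA1 library 1, 11 passed and Egr1, Klra1 and Ccl3 were lost. Over all 21 alternatives Clu and Igha were each called in 18, Igkc in 17, Egr1 in 13, Ccl3 in 12 and Klra1 in 7. With each library taken as 1 sample, 2 against 2, no gene passed in edgeR (183 of 8541 at an unadjusted p under 0.05).

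NK cells were also compared with CD8 T cells of the same tumours, taken in all states. The NK cells had higher Cma1, granzyme B and Ly49 genes and lower naive and memory T-cell genes. The 1438 CD8 T cells were chosen by 2 or more UMIs of Cd3 genes and a UMI of Cd8a or Cd8b1, and both sets were chosen by their own transcripts, so the calls describe the sets. No killing gene was required of the CD8 T cells. Nkg7 was detected in 79.5% of them, but Ccl5 in 47.3%, Prf1 in 18.3%, Ifng in 10.2% and Gzma in 8.90%. The differences therefore hold against this mixed set and not against killer CD8 T cells alone. Of 5928 genes compared in 8 tumours by edgeR's quasi-likelihood test, with the genes of both rules left out, 2492 (42.0%) passed, 1268 (21.4%) higher and 1224 (20.6%) lower in NK cells. CD8 T cells had a median of 4348 UMIs and NK cells 2416.5, a gap whose part in the calls was not tested.

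Among cytotoxic genes Gzmb (log2 fold change 3.73), its inhibitor Serpinb9 (3.84), Serpinb6b (3.05), Fasl (2.4), Nkg7 (1.92) and Ctsw (1.08) were higher in NK cells, whereas Gzmk (-4.60) and Gzmm (-1.93) were lower. Cma1 was at 475 ± 84.8 CPM in NK and 0.96 ± 2.30 CPM in CD8 T cells (SD, n = 8). Among secreted factors Ccl4 (3.05), Ccl3 (2.22), Xcl1 (1.79), Ccl5 (1.57) and Ifng (1.45) were higher, and Ltb (-3.67) and Tnf (-2.56) lower, out of 9. All 5 Ly49 genes and all 9 NKG2 and Klr genes tested were higher. Of signalling genes, Lat2 (4.33), Plcg2 (2.83) and Syk (2.53), of B-cell and myeloid type, were higher. Lat (-2.57), the T-cell counterpart of Lat2, was lower. Fcer1g (4.06) and Tyrobp (3.79), the adaptors of NKp46 and of activating Ly49 receptors, were higher too.

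The largest folds included genes detected in NK or CD8 T cells alone. Khdc1a had 352 UMIs in NK and 0 in CD8 T cells, at least 161-fold higher in CPM by the limit that a count of 0 allows (3 UMIs over the group), and Serpinb9b had 345 against 0 (at least 158-fold). Adamts14, which encodes a procollagen protease, was at 80.7 ± 24.8 CPM in NK and 0.14 ± 0.41 CPM in CD8 T cells. In the other direction Dapl1 (-9.01) and Themis (-8.99), the latter a T-cell receptor signalling gene, were lowest in NK cells, followed by Fam169b (-7.97) and the T-cell co-receptors Cd6 and Cd5 (-7.51 each). Tdrp had 0 UMIs in NK and 429 in CD8 T cells, at least 104-fold higher in CD8 T cells.

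Maturity lists parted NK cells from this mixed set of CD8 T cells almost completely. Of 13 late-stage genes 12 were higher in NK cells, led by Cma1, Irf8 (4.87), S1pr5 (3.83) and Klrg1 (3.79), and S1pr1 was lower (-2.37). Of 13 early-stage genes 10 were lower, led by Il7r (-4.87), Ltb and Tcf7 (-3.64), and Xcl1 and Cd7 (0.69) were among the 3 higher. Of 81 ribosomal protein genes 79 were lower in NK cells, with a median log2 fold change of -1.36 against 0.02 over all genes compared, and 10 of 19 interferon response genes were lower (Ly6a -4.30, Ifi27l2a -4.64).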

How the data were processed

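Gene and hashtag UMI counts were deposited as 10x matrices, 4 gene libraries with their antibody features, made by the authors with Cell Ranger 6.0.1 and the mm10 build per the submitters' processing notes. Libraries were prepared with a 10x 3 prime kit per the labels' protocols. Of 19 antibody features, the 2 hashtags were used. A hashtag was assigned per library by a mixture of 2 components on log counts (scikit-learn 1.9.0, posterior above 0.5), and cells with both or none entered no tumour value. Doublets between tumours were removed only in that way, and no doublet caller was run.

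The summed counts of each tumour entered edgeR's robust quasi-likelihood test (version 4.0.16 in R 4.3.3, two-sided, with TMM scaling and filterByExpr), in sums of 20 or more cells (10 for classes), with the tumour as a block for classes of the same tumours. Calls were made at 0.05 after Benjamini-Hochberg adjustment over all genes tested. For shares, the labels of the 8 tumours were permuted in full (exact, two-sided; scipy 1.17.1). Intervals implied by a count of 0 (3 counts) cover counting error only. The fits were tested on simulated data with 200 changed genes. DESeq2 1.42.0, other filters, thinned cells, left-out samples and libraries as samples were alternatives. Named genes were the 10 per direction with the largest change among those called (at 20 CPM or more in the higher class for the class comparisons), 5 per direction not called where fewer than 10 passed, called and abundant members of each list, and fixed NK genes. Some genes within these rules are not reported here. The members and lists were chosen with earlier results of these data known.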

Additional observations from a re-analysis of the deposited data

Results flagged for a closer look

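Among 104 groups of 4 tumours examined, 8 had 1 tumour far from the other 3, and chance flags about 1 in 20 groups. The second tumour of mA1 library 1 was apart in 3 of them: its proliferating share was 2.07% of NK cells against 0 in the other mA1 tumours, its Ncr1 level was 861 CPM against 1035 to 1043 CPM, and its Klra17 level was 1.22 CPM against 0. This tumour also held 16 of the 34 NK cells rich in myeloid UMIs, whose part in these values was not tested. Where the other 3 tumours are at 0, as for the proliferating share and Klra17, any value above 0 is flagged. Klra17 had a UMI in only 4 of all 1802 NK cells. The first tumour of mA1 library 1 had Gzmb at 952 CPM against 709 to 735 CPM in the other mA1 tumours. In mA1 library 2, the second tumour had Tbx21 at 241 CPM against 160 to 165 CPM. The first had Dohh at 52.8 CPM on the scaled CPM of the fit, against 36.1 to 37.8 CPM. In Con tumours, the first of library 1 had Klra6 at 7.19 CPM against 17.8 to 19.0 CPM, and the first of library 2 had Blvra at 40.7 scaled CPM against 43.8 to 44.4 CPM.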

How the results depend on the processing

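The excess of Cd27+ Itgam- cells in mA1 tumours kept its direction under every alternative run, but not its p: it was 7.27 percentage points without Klra8 in the rule (exact permutation p = 0.0571), 2.91 with thinned cells (0.114), 7.10 with libraries as samples (0.333), 7.67 with permutation within library numbers, the replicate block (0.0556, the smallest that test allows), and 3.85 to 11.5 with a tumour or library left out. Leaving out any 1 Con tumour gave an exact permutation p of 0.0571 where 0.0286 was possible. Libraries as samples, the block and leaving out a library (smallest p 0.0667) cannot reach 0.05. The cause of the other losses was not tested. Differences near 0 changed sign: Cd27+ Itgam+ to -0.13 with thinned cells; cells with neither gene to 0.43 with 4 of 7 genes required, to 0.65 thinned, and from -13.2 to 11.8 with samples left out; the proliferating share to 0.17 with a hashtag share of 80%, 0.0925 with 4 of 7 genes, 0.21 thinned, and from -0.54 to 0.49. The Cd27- Itgam+ difference ran from -20.1 to 2.63 and the NK share difference from -7.27 to -0.35 with samples left out.

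Between the groups, the 6 called genes became 52 with no filter on low counts (27 higher), 0 with libraries as samples (183 at an unadjusted p under 0.05), 0 with libraries and a block chosen after seeing the data (142), 15 without cells rich in myeloid UMIs, 9 with the replicate block, and 3 to 60 with samples left out (60 without mA1 library 2, of which 41 higher, 16 without Con library 1, 11 without mA1 library 1, 3 without Con library 2). DESeq2 called 5, of which 4 were shared. Same-numbered libraries deviated together only weakly (r = 0.17 over 8541 genes, 2 pairs) and were not taken as paired. With thinned cells 1 class gene was called in place of 107, and it was not among the 107. With no filter on low counts 86 were called, 22 higher and 64 lower, and 35 of them were among the 107. The number was 82 without the block by tumour, and 60 to 105 with samples left out (60 without mA1 library 1). The dependence of the class difference on the group called 6 genes without Con library 2, an alternative chosen after seeing the data. NK against CD8 T calls ran from 1808 to 2527 with samples left out. They were 3547 with no filter on low counts, 2783 with libraries as samples and 2671 without cells rich in myeloid UMIs. Of 333 values of the 16 genes named between the groups, 267 kept their direction and side of the threshold, 41 lost the call, 25 gained one and 0 changed sign. Of 337 values of the 20 class genes, 276 kept both, 61 lost the call and 0 changed sign. Depth limits mainly the classes, of which the smallest sums held 10 Cd27+ Itgam- cells.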
